A study of Mus musculus with 6 samples.

Results

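The T cell and cytotoxic lymphocyte genes described here are 40 mouse genes chosen by symbol: the chains of the T cell receptor complex, T cell surface molecules, their first signalling proteins, granule proteins, natural killer (NK) cell receptors and lineage transcription factors. All 40 were found among the 16763 genes of the deposited table, and 37 had enough reads for the test over 12891 genes. The RNA came from tumors raised in BALB/c mice, labelled male, with 4T1 cells, a mammary carcinoma line of the same strain. The model group (3 libraries) bore such tumors, and the DMDD liposome group (3 libraries) bore them and were treated with DMDD in liposome form, a liposome being a small lipid vesicle. DMDD appears in the labels under that abbreviation alone, and the labels give no age, dose, time, vehicle or mouse for any library. The p-values therefore reflect variation among these 6 libraries and no more, and part of it may be technical. The genes were proposed with the read counts of these same 6 libraries in view, so their differences between groups are given as descriptions.

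T cells recognise peptides on other cells through a receptor whose signal leaves the membrane by the CD3 chains, with the help of the coreceptors CD4 on helper cells and CD8 on killer cells. Killer T cells and NK cells then release perforin, which opens the target membrane, and granzymes, which are proteases that start cell death inside it. In tumors these genes are read as a measure of lymphocyte presence, but in bulk RNA fewer cells of a type and less RNA per cell cannot be told apart.

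Library totals ran from 13037500 to 15616840 counts, so that 3 counts in a library stood for 0.193 to 0.230 CPM (depth-scaled counts, with TMM scaling between libraries). Markers of epithelial tumor cells were abundant in every library, with 10 genes summing to between 3786 and 6837 CPM. Model replicate 2 stood apart by keratinocyte genes of the epidermis: Krt5 had 1919 counts there and at most 2 elsewhere.

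Promoters are shown for members whose counts are compared further on. The stretches printed here are the 150 bases before the RefSeq start of 5 granule genes, of Lck (1 of its 2 starts), and of Cd8a and Cd3e, from RefSeq on build GRCm38.p6, 5′ to 3′, with TGTGGT or its reverse complement in capitals. TGTGGT is the core bound by RUNX factors. They were chosen to show members with and without it: Gzmb, Gzma, Prf1, Nkg7 and Lck hold it, and Gzmk, Cd8a and Cd3e do not.
Gzmb (chr14:56262335-56262484, minus strand): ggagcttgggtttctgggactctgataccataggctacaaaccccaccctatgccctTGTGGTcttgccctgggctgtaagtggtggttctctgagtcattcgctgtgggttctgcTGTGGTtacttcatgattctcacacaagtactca
Gzma (chr13:113100982-113101131, minus strand): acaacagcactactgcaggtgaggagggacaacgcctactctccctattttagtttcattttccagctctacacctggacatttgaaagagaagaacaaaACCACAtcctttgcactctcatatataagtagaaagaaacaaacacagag
Prf1 (chr10:61297686-61297835, plus strand): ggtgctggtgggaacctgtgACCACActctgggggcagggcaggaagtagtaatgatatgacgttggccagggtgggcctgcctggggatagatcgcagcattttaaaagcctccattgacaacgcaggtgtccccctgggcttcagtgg
Nkg7 (chr7:43436988-43437137, plus strand): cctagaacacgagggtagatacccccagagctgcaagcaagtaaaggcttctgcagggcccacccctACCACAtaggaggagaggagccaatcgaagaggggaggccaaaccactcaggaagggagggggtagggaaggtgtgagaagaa
Gzmk (chr13:113180966-113181115, minus strand): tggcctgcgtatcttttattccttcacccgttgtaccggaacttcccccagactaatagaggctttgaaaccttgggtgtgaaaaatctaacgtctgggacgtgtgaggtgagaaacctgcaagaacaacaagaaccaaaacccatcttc
Lck (chr4:129573642-129573791, minus strand): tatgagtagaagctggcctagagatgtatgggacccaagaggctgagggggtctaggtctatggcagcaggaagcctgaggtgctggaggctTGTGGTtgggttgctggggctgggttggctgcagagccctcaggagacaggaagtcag
Cd8a (chr6:71373277-71373426, plus strand): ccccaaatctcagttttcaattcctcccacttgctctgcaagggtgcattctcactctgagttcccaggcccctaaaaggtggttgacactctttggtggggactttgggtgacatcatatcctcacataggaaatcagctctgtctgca
Cd3e (chr9:45009612-45009761, minus strand): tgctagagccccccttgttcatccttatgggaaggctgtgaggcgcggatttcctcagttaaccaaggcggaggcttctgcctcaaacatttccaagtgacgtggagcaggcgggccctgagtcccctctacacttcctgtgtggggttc
RefSeq promoters were found for 27 of the 40 genes, and the 250 bases before each start were searched on both strands. TGTGGT was present for 13 of the 27 (48.1%), against 4303 of 27025 genes (15.9%) in the whole promoter table. The 13 were Cd96, Gzma, Gzmb, Gzmc, Klrb1c, Klrc1, Klrk1, Lck, Ncr1, Nkg7, Prf1, Txk and Zap70. Of the other 3 motifs searched, GGAA, the core bound by ETS factors, was present for 24 of the 27 (88.9%) against 94.2% of genes. CANNTG, the E-box, was present for 24 (88.9%) against 69.3%, and CTTTG, a core of TCF7 and LEF1 sites, for 16 (59.3%) against 52.2%. None of the 4 CD3 genes and not Cd8a held TGTGGT. Matches of different motifs may overlap (an E-box can share letters with TGTGGT), each motif was counted on its own, and a match describes the sequence alone.

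In the DMDD liposome tumors the lymphocyte genes split by library: replicates 1 and 3 stood above the model tumors for most of them, and replicate 2 stood at or below. DMDD liposome replicate 2 was the lowest of the 6 libraries for 21 of the 37 tested members (56.8%), against 17.1% of all genes tested. Replicates 1 and 3 were the 2 highest for 22 of the 37 (59.5%), against 9.55% of all genes tested. Both held at once for 17 members (45.9%) and for 2.09% of all genes tested. The mean of the members' log2 CPM, centred gene by gene, was 0.60 and 0.63 in DMDD liposome replicates 1 and 3, -0.60 in replicate 2, and between -0.26 and -0.12 in the model libraries.

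**Figure D1:**
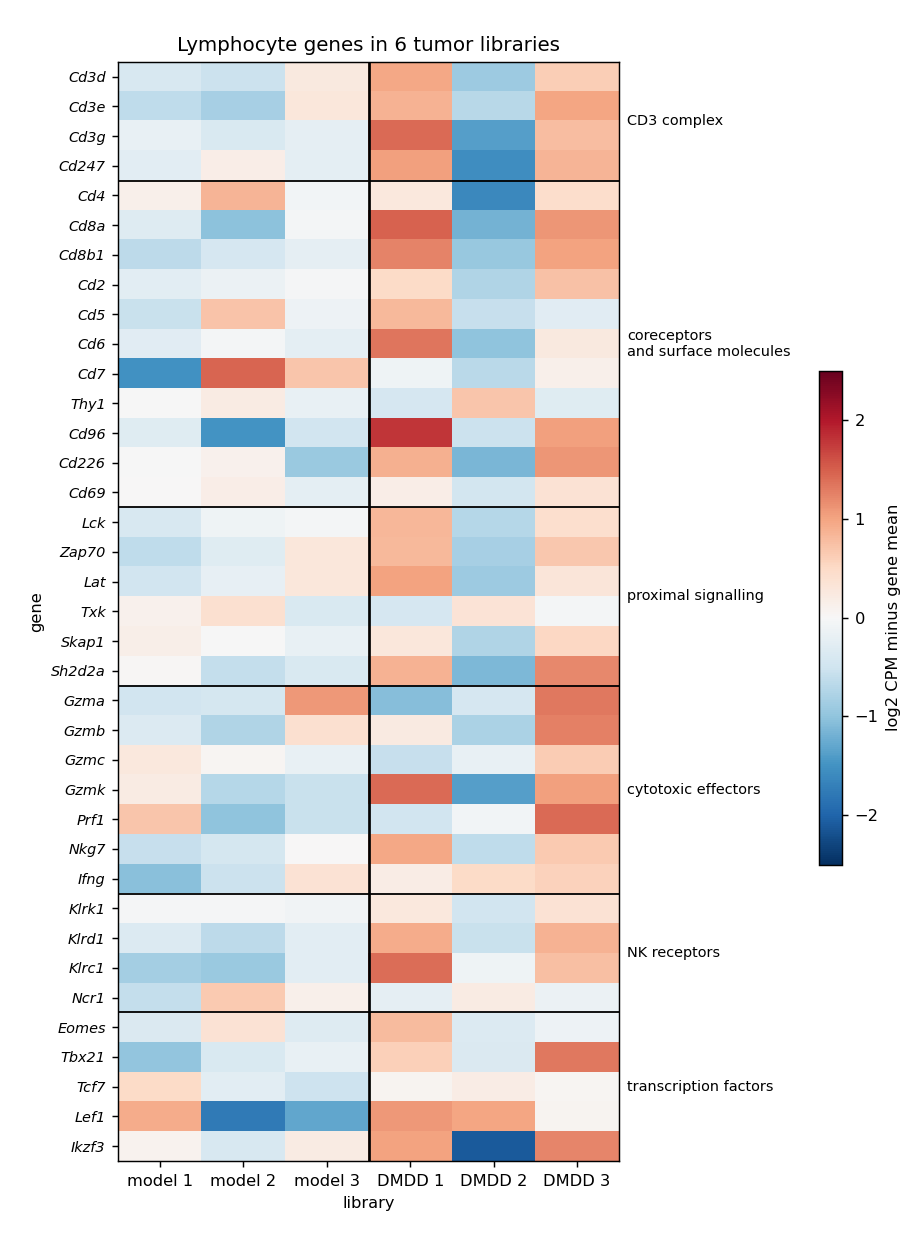
Log2 CPM (prior count 2) of the 37 tested genes in the 6 libraries, each gene centred on its own mean and genes grouped by role; red is above and blue below the gene's mean. Columns DMDD 1 and DMDD 3 are red for most genes of the CD3, coreceptor and signalling groups, and DMDD 2 is blue for the same rows, with Thy1, Txk, Gzma, Gzmc, Prf1, Ncr1, Tcf7 and Lef1 among the exceptions.

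Compared as groups, 32 of the 37 tested members had a positive log2 fold change in DMDD liposome (Gzmc, at 0.00, turned negative under DESeq2's size factors), and their median log2 fold change was 0.63 (1.55-fold), beside a median of 0.01 over all genes tested, of which 51.2% were positive. No member was called by edgeR's quasi-likelihood test after Benjamini-Hochberg adjustment over all genes tested (smallest adjusted p = 0.626), and 0% of all genes tested were called. At an unadjusted p under 0.05 the same test found 2 of the 37 members, Cd96 and Klrc1, both higher, against 7.65% of all genes tested (4.34% higher and 3.31% lower). DESeq2 called 0 of the 40 members and 0.408% of the genes it gave an adjusted p, and the authors' deposited table called 0 of the 40 and 0.346% of its genes. The groups' 3 values failed to overlap for 1 member, Klrc1, higher in DMDD liposome, against 7.21% of all genes tested in that direction, and for 0 members lower, against 5.66%. A log2 fold change of at least 0.5 was measured for 22 of the 37 members and for 8.56% of all genes tested. One of -0.5 or less was measured for 1 member and for 4.82% of all genes tested.

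The median standard error of the log2 fold change was 0.50 for the tested members and 0.17 over all genes tested. Leaving out 1 library at a time moved the members' median between 0.34 (without DMDD liposome replicate 1) and 0.91 (without replicate 2). The number of the 37 at an unadjusted p under 0.05 was 5, 1 and 2 without model replicates 1, 2 and 3, against 16.3%, 5.54% and 4.79% of all genes tested. It was 0, 20 and 1 without DMDD liposome replicates 1, 2 and 3, against 3.66%, 8.68% and 6.53% of all genes tested. Of the 20, 19 were higher, against 4.7% of all genes tested, and Thy1 was lower. The library left out there is the one already seen to be lowest for most of these genes, so this count follows from that choice and is a description. In all 6 of these fits edgeR's adjusted test called 0 members. Without DMDD liposome replicate 2, DESeq2, run with libraries left out only after the data had been seen, called 5 members (Cd3g, Cd8a, Cd8b1, Nkg7 and Klrc1, all higher) and 0.892% of all genes, with the same limit.

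**Figure D2:**
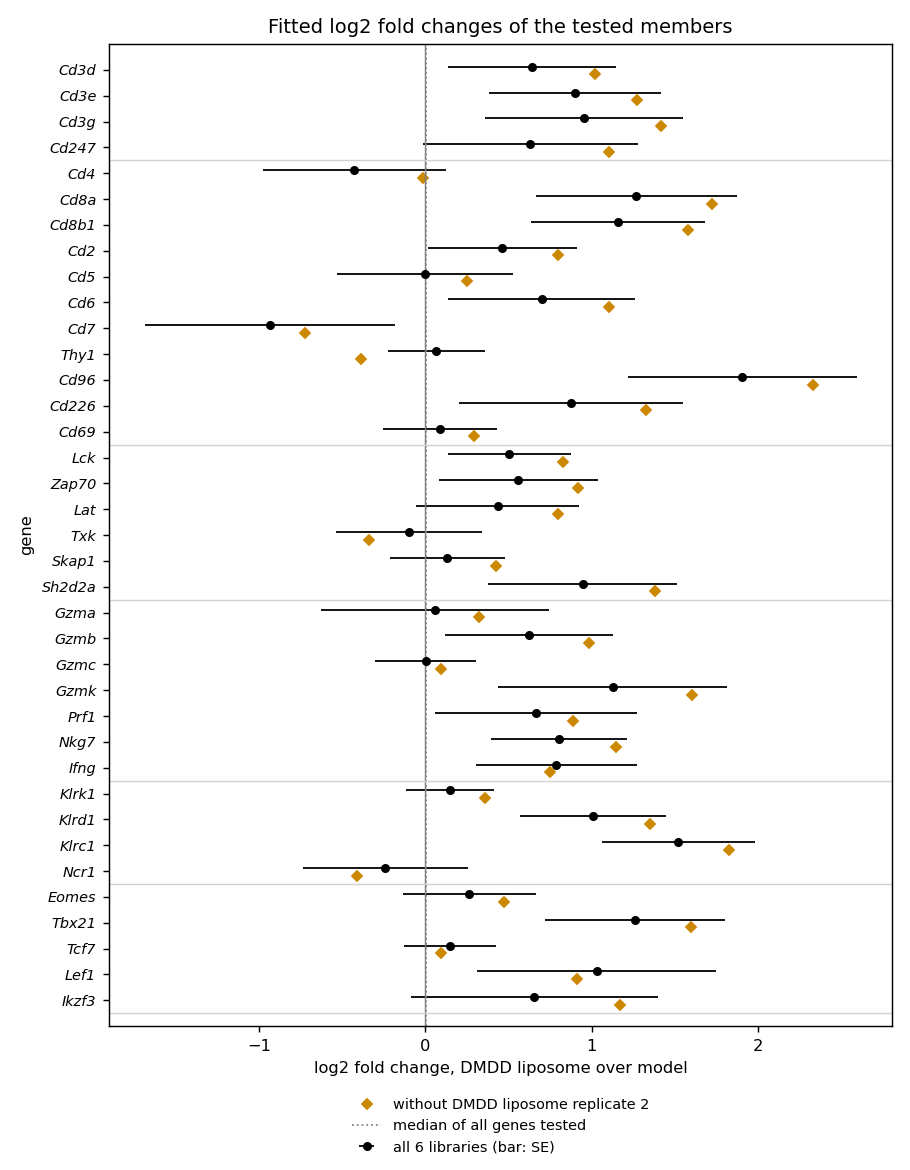
Log2 fold change of DMDD liposome over model for each tested gene, with all 6 libraries (black, bars are SE) and without DMDD liposome replicate 2 (orange). Of the 37 genes, 32 lie above 0 with all libraries, and Cd8a moves from 1.27 to 1.73 when replicate 2 is left out.

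The CD3 complex carried the split most plainly. Cd3g, the gamma chain, had 70, 72 and 79 counts in the model libraries, replicates 1 to 3 in order, and 235, 30 and 154 counts in the DMDD liposome libraries in the same order. The model libraries were nearly level and the DMDD liposome libraries lay on both sides of them, replicate 1 at 7.35 times the CPM of replicate 2. The model mean of Cd3g was 5.07 ± 0.377 CPM and the DMDD liposome mean 9.80 ± 7.21 CPM (SD, n = 3 per group), with a log2 fold change of 0.95 ± 0.60 (SE).

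Cd3e, the epsilon chain, had 31, 32 and 70 counts in model and 99, 30 and 112 in DMDD liposome (log2 fold change 0.90 ± 0.52). Model replicate 3 lay between the 2 high DMDD liposome libraries and the rest. Cd3d, the delta chain, had 33, 35 and 61 counts in model and 95, 23 and 77 in DMDD liposome (0.64 ± 0.50). Cd247, the zeta chain, which carries most of the receptor's signalling motifs, had 17, 28 and 20 counts in model and 48, 6 and 44 in DMDD liposome (0.63 ± 0.65). In all 4 chains DMDD liposome replicates 1 and 3 were the 2 highest libraries, and in 3 of the 4 replicate 2 was the lowest. Summed, the 4 genes came to 11.6, 10.8 and 15.1 CPM in model and to 33.8, 6.72 and 26.4 CPM in DMDD liposome. Cd3g and Cd3d start 1355 bases apart on opposite strands in RefSeq. Their counts moved together here, but so did those of Cd247, which lies on another chromosome. The part of the shared locus was not tested.

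Per length, in the authors' FPKM averaged over the 6 libraries, Cd3g was the most abundant chain at 7.32 ± 5.31 FPKM (SD, n = 6), followed by Cd3e at 2.97 ± 1.75 FPKM and Cd3d at 2.33 ± 1.24 FPKM, which lay within each other's spread. Cd247 was at 0.415 ± 0.253 FPKM.

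Of the coreceptors, both CD8 chains were higher on average in DMDD liposome and Cd4 was lower. Cd8a, the alpha chain, had 121, 87 and 169 counts in model and 460, 66 and 366 in DMDD liposome. Replicates 1 and 3 exceeded every model library by more than 2-fold, and replicate 2 was the lowest of all. Its model mean was 8.66 ± 2.80 CPM and its DMDD liposome mean 20.8 ± 14.2 CPM, with a log2 fold change of 1.27 ± 0.60 (2.41-fold). Cd8b1, the beta chain carried by conventional killer T cells, had 43, 60 and 68 counts in model and 179, 35 and 157 in DMDD liposome (1.16 ± 0.52). The beta chain gave 31.9% ± 7.81 of the counts of both chains in model and 30.9% ± 3.41 in DMDD liposome (SD, n = 3 per group), a difference within the spread.

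Cd4 had 44, 87 and 44 counts in model and 52, 12 and 62 in DMDD liposome (-0.43 ± 0.55), with model replicate 2 the highest library and DMDD liposome replicate 2 the lowest. Leaving out DMDD liposome replicate 2 took this value to -0.01. The balance of the coreceptors was compared after the counts had been seen. Cd8a made up 73.3%, 50% and 79.3% of the Cd8a plus Cd4 counts in model and 89.8%, 84.6% and 85.5% in DMDD liposome. All 3 DMDD liposome shares lay above all 3 model shares. Other shares were computed for Cd8b1 with Cd8a, Foxp3 with Cd4, Ncr1 with Cd3e, Gzmb with Gzmc and Gzma with Gzmk. Cd8a, Gzmb and Prf1 were each also set against the CD3 genes. Among all these shares, only Cd8a of Cd8a plus Cd4 had groups that did not overlap. For single genes, 7.21% of all genes tested did not overlap with DMDD liposome higher, and 5.66% with it lower. Of the Cd8a plus CD3 gene counts, Cd8a made up 44.5%, 34.3% and 42.4% in model. In DMDD liposome it made up 49.1%, 42.6% and 48.6%, so those groups overlapped. The exact binomial intervals (Clopper-Pearson, 95%) of DMDD liposome replicate 2 (74.7% to 91.8%) and model replicate 3 (73.3% to 84.6%) overlapped, and such intervals cover counting error only. The 2 genes differ in length, so the share is comparable between libraries and is no ratio of cells.

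**Figure D3:**
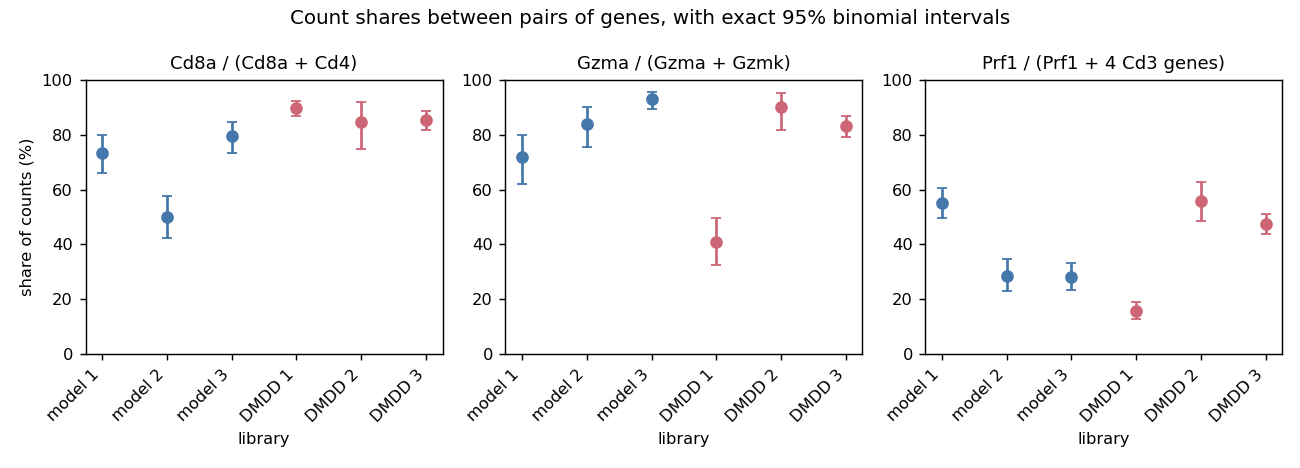
Share of counts taken by the first-named gene within each pair or set, per library, with exact 95% binomial intervals; blue is model and red is DMDD liposome. The Cd8a share is above 84% in the 3 DMDD liposome libraries and below 80% in the 3 model libraries, while the Gzma and Prf1 shares overlap between groups.

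The remaining surface molecules fell into those that followed the CD3 genes and those that did not. Cd96, a receptor of T and NK cells for nectin-like ligands, had 12, 5 and 12 counts in model and 61, 10 and 37 in DMDD liposome. Its log2 fold change of 1.91 ± 0.69 was the largest of the 37 (unadjusted p = 0.0259, adjusted p = 0.626 in edgeR's test), on few reads. Cd226, which binds related ligands with an activating effect, had 13, 17 and 7 counts in model and 28, 5 and 34 in DMDD liposome. The adhesion receptors Cd2 and Cd6 and the activation marker Cd69 had their lowest library in DMDD liposome replicate 2, at log2 fold changes of 0.46, 0.70 and 0.09. Cd5, a brake on receptor signalling, had 16, 49 and 26 counts in model and 48, 16 and 22 in DMDD liposome. Its log2 fold change of 0.00 was -0.59 without DMDD liposome replicate 1 and 0.46 without model replicate 2. Cd7 was the 1 member at a log2 fold change of -0.5 or less (-0.93 ± 0.75), with 3, 43 and 24 counts in model and 12, 7 and 15 in DMDD liposome.

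Thy1, a T cell surface protein that fibroblasts also carry, behaved apart. It had 1518, 2108 and 1576 counts in model and 1239, 2518 and 1391 in DMDD liposome, so that DMDD liposome replicate 2 was its highest library and replicates 1 and 3 its lowest. At 64.5 ± 19.5 FPKM over the 6 libraries it far exceeded every CD3 chain. Fibroblast genes had the same 2 libraries on top: their 8 genes summed to 4034, 7434 and 4469 CPM in model and 4395, 10723 and 3912 CPM in DMDD liposome. The part of fibroblasts in the Thy1 values was not tested. Thy1 stood at 0.07 ± 0.29 with all libraries and at -0.39 without DMDD liposome replicate 2.

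**Figure D4:**
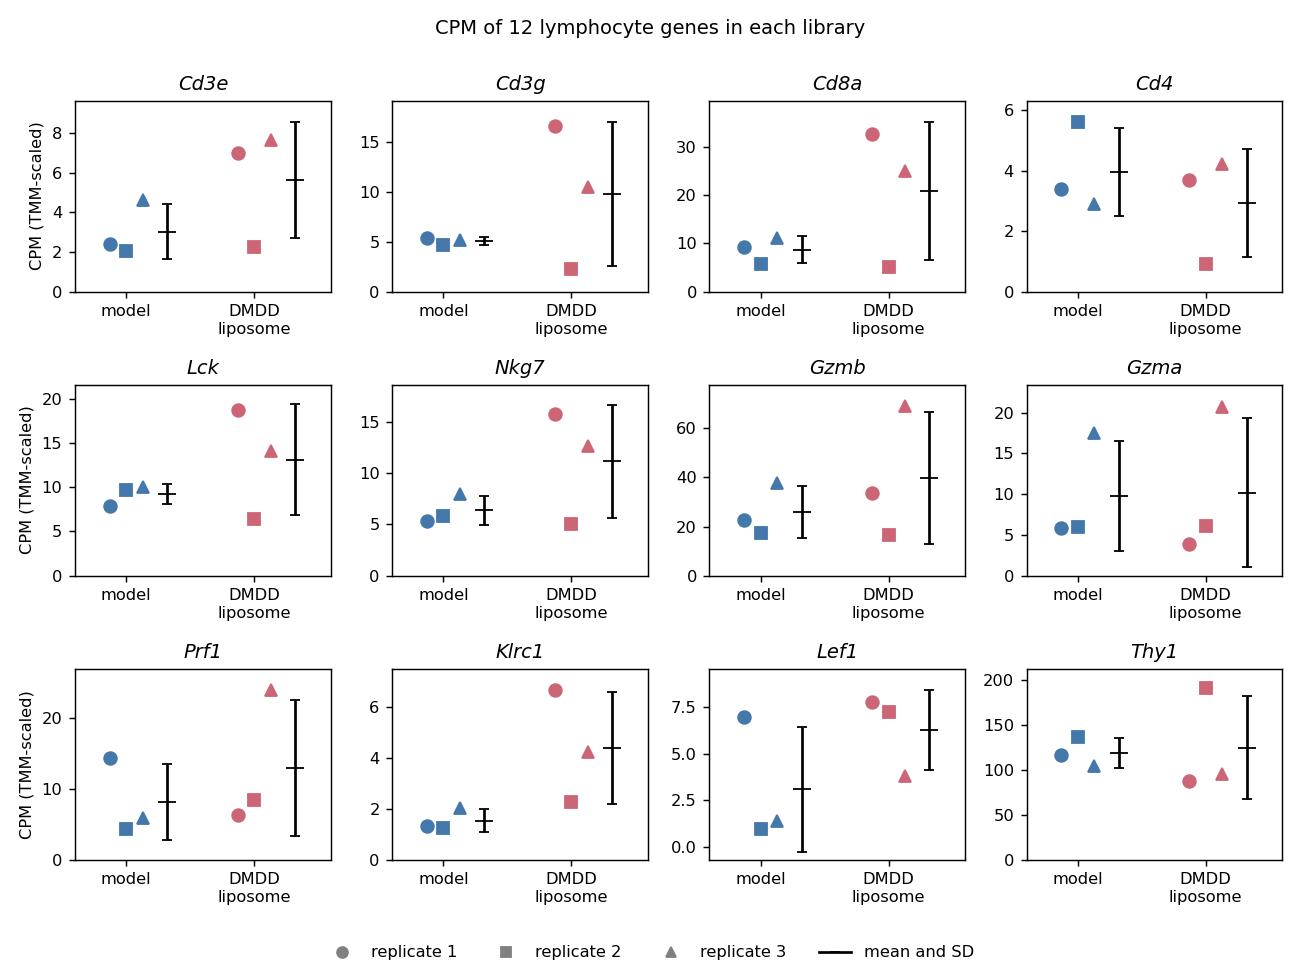
CPM (TMM-scaled) of 12 genes in each library; symbols are replicates, and the black mark and bar are the mean and SD of 3 libraries. For Cd3g, Cd8a and Lck the squares of DMDD liposome replicate 2 lie below the model libraries and the other 2 above them, while Thy1 has the opposite order.

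Of the 6 tested genes for the first signalling proteins, 5 had their lowest library in DMDD liposome replicate 2, as did 3 of the 4 CD3 chains. Lck, the kinase that phosphorylates the CD3 chains, had 103, 150 and 153 counts in model and 265, 84 and 207 in DMDD liposome (0.51 ± 0.37). Zap70, the kinase recruited to those chains, had 31, 47 and 70 counts in model and 94, 27 and 89 in DMDD liposome (0.56 ± 0.48). Lat, the adaptor that Zap70 phosphorylates, had 35, 51 and 71 counts in model and 109, 26 and 69 in DMDD liposome (0.43 ± 0.49). In each of these kinases and the adaptor, replicate 2 of the DMDD liposome group was lowest and replicate 1 highest.

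Sh2d2a, an adaptor that binds Lck, had 44, 33 and 38 counts in model and 87, 19 and 114 in DMDD liposome (0.95 ± 0.57). Skap1, an adaptor linking the receptor to integrin adhesion, had 88, 94 and 82 counts in model and 106, 47 and 130 in DMDD liposome (0.13 ± 0.35). Txk, a kinase of the Tec family, did not share the order, with 14, 21 and 11 counts in model and 10, 17 and 14 in DMDD liposome. Sh2d1a, the adaptor SAP, had too few reads for the test, with 3, 2 and 7 counts in model and 13, 3 and 17 in DMDD liposome. All 7 genes summed to between 24.4 and 28.4 CPM in model and to 48.4, 16.8 and 43.6 CPM in DMDD liposome.

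The granule genes did not share 1 order of libraries. Nkg7, a granule membrane protein of T and NK cells, and Gzmk, granzyme K of memory killer T cells, had the order of the CD3 chains. Nkg7 had 69, 91 and 122 counts in model and 223, 67 and 186 in DMDD liposome (0.81 ± 0.41). Gzmk had 30, 18 and 20 counts in model and 78, 9 and 61 in DMDD liposome (1.13 ± 0.69). For both, replicates 1 and 3 of the DMDD liposome group were above every model library.

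Gzmb, granzyme B, had 295, 266 and 577 counts in model and 476, 220 and 1016 in DMDD liposome (0.62 ± 0.50), with model replicate 3 above DMDD liposome replicate 1. Gzma, granzyme A, had 76, 93 and 267 counts in model and 54, 80 and 304 in DMDD liposome (0.06 ± 0.69). Its high libraries were replicate 3 of each group, and DMDD liposome replicate 1, the highest library for Cd3g, was the lowest. Gzma gave 40.9% of the Gzma plus Gzmk counts in DMDD liposome replicate 1 (exact interval 32.4% to 49.8%) and between 71.7% and 93.0% in the other 5 libraries.

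Prf1, perforin, had 186, 67 and 90 counts in model and 89, 112 and 350 in DMDD liposome (0.66 ± 0.61), with DMDD liposome replicate 3 and model replicate 1 the highest. Of the counts of Prf1 and the 4 CD3 genes, Prf1 took 55.2%, 28.6% and 28.1% in model and 15.7%, 55.7% and 47.5% in DMDD liposome. Gzmc, granzyme C, had 311, 319 and 268 counts in model and 189, 233 and 455 in DMDD liposome (0.00 ± 0.30). The granule list as a whole rested on 1 library: its median log2 fold change of 0.66 over 7 genes went to -0.0404 without DMDD liposome replicate 3. Ifng, the cytokine interferon gamma, had 6, 11 and 22 counts in model and 18, 21 and 25 in DMDD liposome (0.79 ± 0.49), and replicate 2 was not low for it.

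Granzymes D, F and G, which lie in the same gene family as Gzmc and were picked after their values were seen, had an order like that of Prf1. Gzmf had 259, 45 and 50 counts in model and 103, 244 and 668 in DMDD liposome, and Gzmg had 458, 36 and 115 in model and 130, 353 and 766 in DMDD liposome. Gzmd had 327, 119 and 131 counts in model and 193, 309 and 660 in DMDD liposome. In all 3 genes model replicate 1 and DMDD liposome replicates 2 and 3 were the highest libraries. Gzme, granzyme E, did not have that order: it had 172, 205 and 182 counts in model and 235, 308 and 331 in DMDD liposome (0.70 ± 0.17). Model replicate 1 was not among its high libraries. Its groups did not overlap, as for 7.21% of all genes tested in that direction. The granzymes B to G are similar in sequence, and the way reads were assigned among them is not known here, which leaves their split uncertain. Per length Gzmc (23.1 ± 6.94 FPKM) and Gzmb (22.9 ± 13.9 FPKM) were alike and had higher means than Gzma (9.89 ± 7.09 FPKM), with overlapping spreads.

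Among the NK receptors, RNA of the genes for both chains of the NKG2A and CD94 heterodimer was higher on average in DMDD liposome. Klrc1, which encodes the inhibitory receptor NKG2A of NK and activated killer T cells, had 17, 19 and 31 counts in model and 94, 30 and 62 in DMDD liposome. Its model mean was 1.52 ± 0.447 CPM and its DMDD liposome mean 4.38 ± 2.20 CPM, with a log2 fold change of 1.52 ± 0.46 (unadjusted p = 0.0118, adjusted p = 0.626 in edgeR's test). On the CPM scale all 3 DMDD liposome libraries were above all 3 model libraries, by a narrow margin for replicate 2. Klrd1, its partner CD94, had 30, 28 and 37 counts in model and 81, 26 and 80 in DMDD liposome (1.01 ± 0.44). Klrc2, a close relative of Klrc1 that is not among the 40, had 16, 14 and 17 counts in model and 48, 11 and 45 in DMDD liposome, and reads may be shared between the pair.

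Klrk1, the activating receptor NKG2D, had 91, 108 and 101 counts in model and 121, 67 and 134 in DMDD liposome (0.15 ± 0.27). The receptors most specific to NK cells were scarce. Ncr1, NKp46, had 6, 20 and 13 counts in model and 9, 12 and 10 in DMDD liposome (-0.24 ± 0.49), with no library of the treated group standing out. Klrb1c, NK1.1, had 0 to 4 counts per library, and the filter left it out.

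The transcription factors were a mixed set. Tbx21, T-bet, which drives the killer and interferon gamma programme, had 7, 14 and 16 counts in model and 27, 12 and 47 in DMDD liposome (1.26 ± 0.54). Eomes, its relative, had 39, 78 and 47 counts in model and 96, 40 and 52 in DMDD liposome (0.26 ± 0.40). Ikzf3, Aiolos, which B cells also express, had 29, 24 and 37 counts in model and 61, 5 and 74 in DMDD liposome (0.66 ± 0.74), with replicate 2 far below the other 2 libraries of its group.

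Tcf7, TCF1 of naive and stem-like T cells, had 188, 133 and 109 counts in model and 153, 156 and 157 in DMDD liposome (0.15 ± 0.28). Its DMDD liposome libraries were level while those of the CD3 chains spread widely. Lef1, a partner of Tcf7 that epithelial and mesenchymal cells use in Wnt signalling, had 91, 15 and 21 counts in model and 110, 96 and 56 in DMDD liposome (1.03 ± 0.72). Model replicate 1 was with the DMDD liposome libraries for Lef1, so the groups overlapped. Foxp3, which defines regulatory T cells, had 7, 10 and 16 counts in model and 6, 3 and 8 in DMDD liposome, under the filter. It gave 16.9% ± 8.63 of the Foxp3 plus Cd4 counts in model and 13.9% ± 5.29 in DMDD liposome, a difference within the spread between libraries.

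Other genes of the same pathways, from lists that do not include the 40, had smaller median differences. Of 29 further genes of T cell receptor signalling, 26 were tested, 0 were called by edgeR after adjustment, and 19 were positive, with a median log2 fold change of 0.24. DMDD liposome replicate 2 was the lowest library for 8 of the 26. Themis, needed in T cell development, had 13, 12 and 17 counts in model and 70, 8 and 25 in DMDD liposome (1.33 ± 0.71). Ptpn22, a phosphatase that restrains Lck, had 75, 66 and 99 counts in model and 165, 116 and 174 in DMDD liposome (0.97 ± 0.24). Its groups had no overlap, replicate 2 included. Groups lay apart in this way for 4 of the 26 with DMDD liposome higher, against 7.21% of all genes tested. With DMDD liposome lower they lay apart for 1 of the 26, against 5.66%. The most abundant members, Csk and Plcg1, which many cell types express, stood at -0.07 and -0.04.

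Of 24 further granule and NK genes, 20 were tested, 0 were called and 15 were positive, with a median of 0.52. The adaptors Fcer1g and Tyrobp, shared with myeloid cells, were the most abundant, at 0.29 and 0.43. Gzmf stood at 1.47 ± 0.88 and Fasl, the death ligand of killer cells, at 1.24 ± 0.82, with 9, 15 and 4 counts in model and 37, 3 and 25 in DMDD liposome.

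Homing, growth and fate genes of T cells had a median of 0.00, with 9 of 18 tested genes positive and 0 called. Cxcr6, a chemokine receptor of resident killer T cells, had 49, 32 and 59 counts in model and 173, 41 and 113 in DMDD liposome (1.25 ± 0.51). Cxcr3, a receptor for interferon-induced chemokines, was in the other direction, with 80, 454 and 238 counts in model and 113, 55 and 150 in DMDD liposome (-1.19 ± 0.56). Ets1 and Gata3, the most abundant of the list and not confined to T cells, stood at 0.01 and -0.39.

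Among 5 inhibitory receptors 4 were positive and 0 called. Pdcd1, PD-1, had 68, 55 and 61 counts in model and 187, 48 and 165 in DMDD liposome (1.14 ± 0.46), again with replicates 1 and 3 of that group highest, and Lag3 had 65, 66 and 89 in model and 112, 54 and 117 in DMDD liposome. Havcr2, TIM-3, stood at 0.38, and Tigit at -0.14 with 499 counts in model replicate 3. Of 15 targets of interferon gamma 6 were positive, 0 were called and the median was -0.13. Psmb8, an immunoproteasome subunit, stood at -0.13, Socs1, a feedback inhibitor, at -0.55, and Ido1, which breaks down tryptophan, at -1.09 ± 1.13. DMDD liposome replicate 2 was the lowest library for 11 of the 15 targets, against 17.1% of all genes tested. The targets' mean centred log2 CPM was -0.64 in that library, -0.22 in DMDD liposome replicate 1 and 0.58 in replicate 3, so replicate 1 was not high for them.

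Markers of other cell types did not share a single order across the DMDD liposome libraries. The 9 skeletal muscle genes summed to 43.1 to 50.8 CPM in model and to 147, 33.3 and 287 CPM in DMDD liposome, the same libraries being high as for the CD3 chains. Myh4, a fast myosin of muscle fibres, had 4, 0 and 4 counts in model and 137, 0 and 269 in DMDD liposome. Summed, muscle genes were highest in DMDD liposome replicate 3 and the CD3 chains in replicate 1. Cd3e alone was highest in replicate 3. The mean centred log2 CPM of all tested members was 0.60 in replicate 1 and 0.63 in replicate 3. The part of muscle genes in the lymphocyte values was not tested.

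B cell genes were near their floor: 3 of 8 passed the filter, and Ms4a1, CD20, had at most 2 counts in any library. The 8 summed to 3.22, 4.32 and 4.79 CPM in model and 5.31, 2.42 and 5.86 CPM in DMDD liposome. In that sum, on few reads, DMDD liposome replicates 1 and 3 were highest and replicate 2 lowest. Gene by gene the split was not shared: replicate 2 was the lowest library for 1 of the 3 tested genes. The mean centred log2 CPM of those genes was -0.50 in model replicate 1 and -0.35 in DMDD liposome replicate 2. Fibroblast genes were highest in DMDD liposome replicate 2, the library lowest for lymphocyte genes, and so were the 8 fat cell genes, at 125 CPM against 38.5 to 72.3 CPM in the others. Macrophage and monocyte genes summed to 2778, 2228 and 1528 CPM in model and 3943, 2855 and 3145 CPM in DMDD liposome, and replicate 2 was the lowest library for 0 of the 10. Their log2 fold change was positive for 8 of the 10 (median 0.47), as for 7 of 8 endothelial genes (median 0.38). All 7 tested muscle genes (median 2.32) and all 5 tested fat cell genes (median 1.22) were positive too. Fibroblast genes were positive for 5 of 8 (median 0.26). Endothelial genes summed to 320, 167 and 195 CPM in model and 270, 346 and 244 CPM in DMDD liposome, and mast cell genes to 42.7, 134 and 121 CPM in model and 23.2, 33.1 and 44.8 CPM in DMDD liposome. Of the 7 mast cell genes tested, 6 had a negative log2 fold change (median -2.31). In edgeR's test 5 had an unadjusted p under 0.05, against 7.65% of all genes tested. EdgeR called 0 of them after adjustment, against 0%, and DESeq2 called 2 of the list, against 0.408%. Epithelial tumor cell genes summed to 4176, 6837 and 6088 CPM in model and 4446, 3786 and 4803 CPM in DMDD liposome. Of these 10 genes 8 had a negative log2 fold change (median -0.58), beside a median of 0.01 over all genes tested. In edgeR's test 4 had an unadjusted p under 0.05, against 7.65% of all genes tested. After adjustment edgeR called 0 of them, against 0%, and DESeq2 called 1, against 0.408%. Their lowest library was DMDD liposome replicate 2 for 6 of the 10, against 17.1% of all genes tested. The part of these epithelial genes in the lymphocyte values was not tested. Neutrophil genes summed to 470 to 590 CPM in model and 505 to 787 CPM in DMDD liposome. Gene by gene, 6 of the 9 neutrophil genes tested had a negative log2 fold change and 3 a positive one (median -0.32). An unadjusted p under 0.05 in edgeR's test was found for 2 of them, against 7.65% of all genes tested. After adjustment edgeR called 0 neutrophil genes, against 0%, and DESeq2 called 1 of the list, against 0.408%. Whether tissue other than tumor, or the share of stroma in the piece taken, bears on the lymphocyte genes was not tested.

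**Figure D5:**
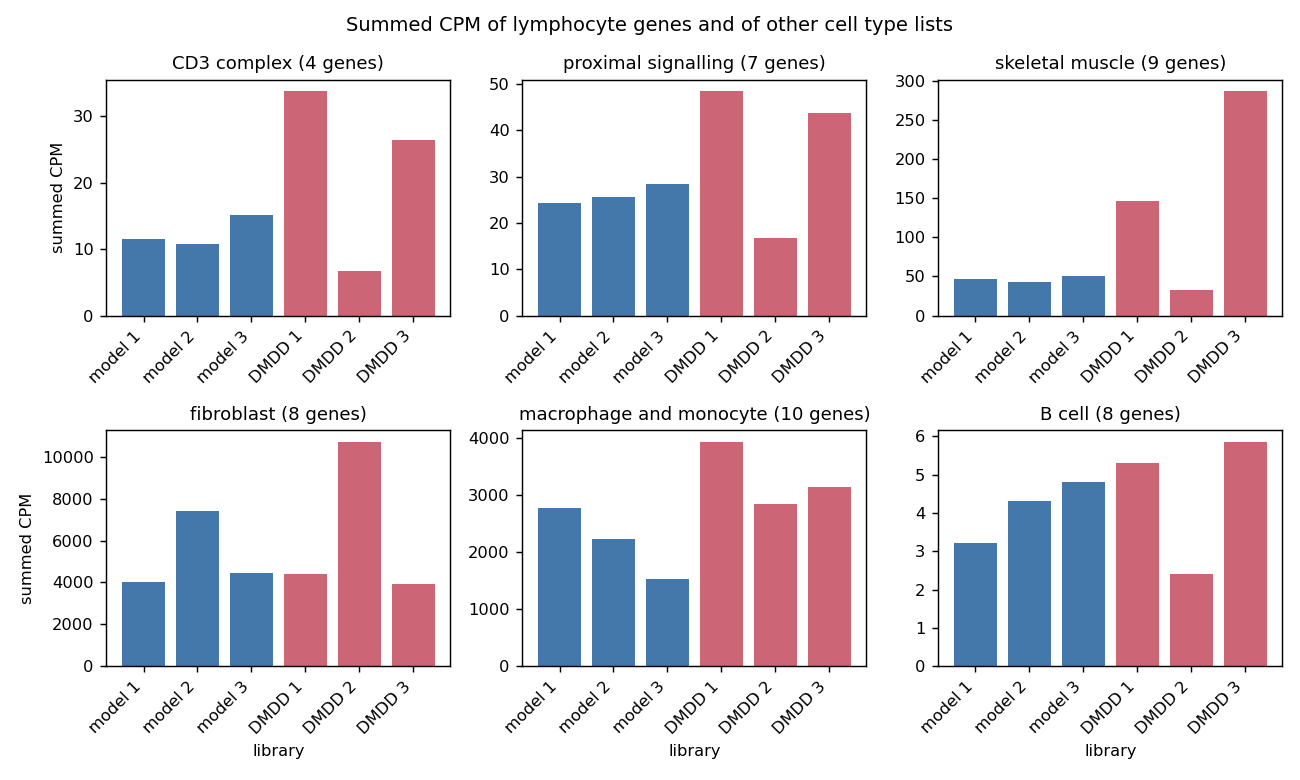
Summed CPM per library of the 4 CD3 genes, the 7 signalling genes and 4 lists of other cell types; blue is model, red is DMDD liposome, and each panel has its own axis from 0. Skeletal muscle genes are high in the same DMDD liposome libraries (1 and 3) as the CD3 genes, and fibroblast genes are high in replicate 2.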

How the data were processed

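Tumor RNA for 3 model and 3 DMDD liposome libraries was extracted with Trizol and prepared with a NEBNext Ultra kit, per the labels' protocols. The sample descriptions say rat, while the organism field, strain and gene symbols are those of mouse. The authors deposited 1 table with read counts, a signal that is each count divided by a size factor per library, FPKM, and log2 fold changes (model over DMDD liposome) with p-values. The submitters' processing notes name DESeq2 and build mm9; aligner, counter, annotation and strand use were not given in the sources used here. Reads of similar, overlapping or antisense genes may therefore be shared among them. Promoter letters are from RefSeq on GRCm38.p6, another build, and were matched by symbol only.

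The deposited counts were tested with edgeR 4.0.16 in R 4.3.3: filterByExpr (minimum count 10, minimum total 15), TMM scaling and the two-sided quasi-likelihood test, with Benjamini-Hochberg adjustment over 12891 genes and a threshold of 0.05. Standard errors came from the F statistic. DESeq2 1.42.0 was an alternative, and both were tested on simulated data. FPKM served only for levels between genes. Samples were grouped by their descriptions. No 2 libraries of a group agreed within sampling noise (chi-square over degrees of freedom of at least 14.8).

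The 40 genes and all gene lists were chosen with earlier results of these data known. Named genes were, by role, the 4 tested members with the highest mean CPM and the 2 with the largest absolute log2 fold change, 8 lineage genes and any called gene; for the other pathways, 2 and 2; the other genes described were chosen after their values were seen, and 1 gene the rule names is not reported here. Protein sequences planned for the CD3 chains were not used here.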

Additional observations from a re-analysis of the deposited data

How the results depend on the processing

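With all 6 libraries, 0 genes and 0 of the 40 members were called by edgeR under TMM or DESeq2 size factors, with or without the filter, and at a threshold of 0.01. DESeq2's Wald test called 59 genes and 0 members. Leaving out 1 library in turn, edgeR called 0 to 112 genes and 0 members, and DESeq2, added after seeing the data, called 867 (of 13745), 30 and 18 genes without model replicates 1, 2 and 3, 20, 128 and 87 without DMDD liposome replicates 1, 2 and 3, and 0 to 5 members (5 without DMDD liposome replicate 2, and 1, Lef1, without model replicate 1). The whole-table count thus rests on model replicate 1, without which the 112 and 867 arose. The members' median log2 fold change of 0.63 ranged from 0.34 to 0.91 over the libraries left out and kept its sign. Medians by role kept theirs too, except the granule genes, which ranged from -0.0404 to 0.99; the cause was not tested. Without DMDD liposome replicate 3, 8 of the 37 members changed sign. Of the single members, Lef1 without model replicate 1 and Ifng without model replicate 3 moved by more than 1 SD of their libraries.

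With the replicate number as a block, edgeR again called 0 genes and 0 members, and the median was 0.44. The numbers were not taken to pair the samples: same-numbered libraries deviated together with correlations of 0.0876, 0.114 and 0.121, although each library correlated best with its own number. Members near 3 counts in a library, such as Klrb1c, Foxp3 and Sh2d1a, are limited by depth.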
